A study of Mus musculus with 6 samples.

Results

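Gsta4 and Prdx2 encode enzymes that remove peroxides and the products of lipid peroxidation, and each was read by 1 mRNA probe on 6 circular RNA arrays of mouse heart. The pair was chosen by name, with earlier results of these data known, from the 50 Agilent mRNA probes of the design. The design holds 14330 distinct non-control probes in all. Probe A_51_P112223 (RefSeq NM_010357) is the Gsta4 probe, and probe A_51_P147207 (RefSeq NM_011563) is the Prdx2 probe. The cardiac apex was taken at 21 weeks of age from 3 C57BL/6 mice, the control strain, and from 3 db/db mice, obese and diabetic animals without a functional leptin receptor. Each array held the RNA of its own animal. The labels name neither the background strain of the db/db mice nor the sex of the animals. The title of the series places the comparison in cardiac fibrosis, and the RNA of both groups had been treated with RNase R, which digests linear transcripts and leaves circles.

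Oxidants that leak from mitochondria and from other enzymes attack the unsaturated fatty acids of membranes, and the lipid peroxides that form break down into reactive aldehydes such as 4-hydroxynonenal. The glutathione S-transferase encoded by Gsta4 joins glutathione to 4-hydroxynonenal, which makes it soluble and less reactive. The peroxiredoxin encoded by Prdx2 is a cytosolic enzyme that reduces hydrogen peroxide with a pair of cysteines and is then recharged by thioredoxin, and it is one of the most abundant proteins of red blood cells. The heart oxidises fatty acids for most of its energy, and in diabetes it takes up more of them.

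The deposited signal of both genes was well clear of the scanner's local background. Gsta4 gave a processed intensity of 357, 294 and 264 scanner units on the 3 C57BL/6 arrays (replicates 1, 2 and 3), and of 324, 396 and 541 on the 3 db/db arrays. As deposited, the groups overlapped, because db/db replicate 1 lay between C57BL/6 replicates 2 and 1, while db/db replicates 2 and 3 were brighter than every control array. Prdx2 gave 1077, 869 and 657 on the C57BL/6 arrays, in the same order, and 786, 442 and 648 on the db/db arrays. Its lowest value was on db/db replicate 2, its highest on C57BL/6 replicate 1, and the groups overlapped as well.

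**Figure D1:**
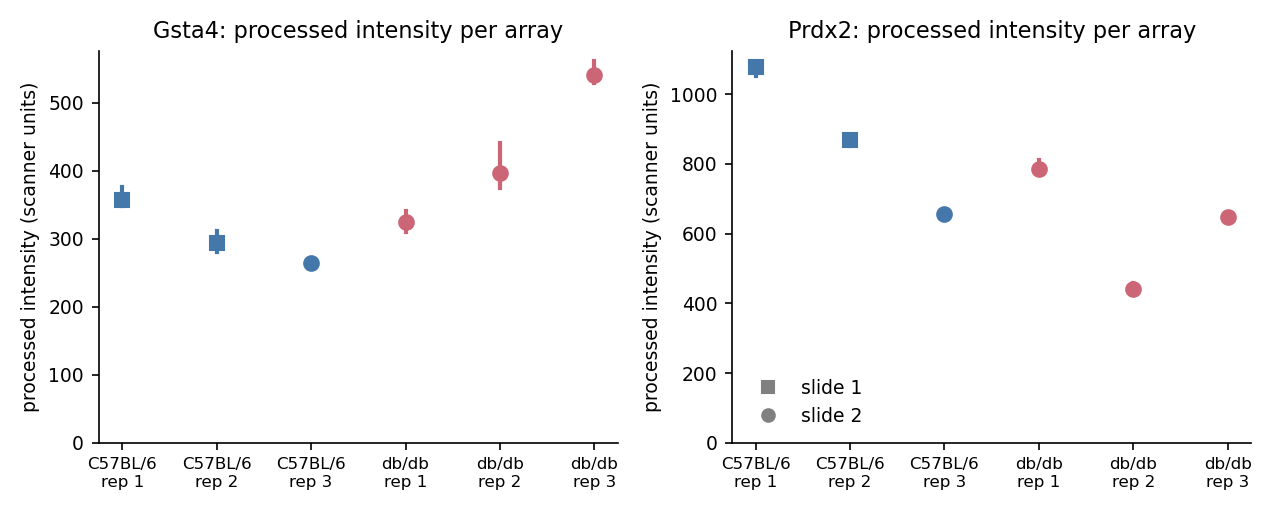
Processed intensity in scanner units (vertical axis, from 0) of the Gsta4 and Prdx2 probes on each array (horizontal axis). Blue is C57BL/6 and red is db/db. The marker is the geometric mean of the spots used, and the line runs from the dimmest to the brightest of them. Squares and circles mark slides 1 and 2, inferred from shared scans. Gsta4 reached 541 on db/db replicate 3, and Prdx2 ran from 442 to 1077.

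Each probe was printed as 10 spots on every array, so the reading within an array was precise. All 60 spots of Gsta4 and all 60 of Prdx2 were marked well above background, none was saturated, and the local background was 17.5 to 19 around Gsta4 and 17.5 to 19.25 around Prdx2. The scanner software had marked 1 spot of Gsta4 and 2 of Prdx2 as outliers, which were left out. Across the spots of an array the SD on the log2 scale was 0.0235 to 0.0772 for Gsta4 and 0.0142 to 0.0327 for Prdx2. A mark above background does not by itself establish an mRNA here, since 14 of the 15 probes that the design names as negative controls carried it on all 6 arrays, on most of their spots. Whether the probes read linear mRNA that had survived RNase R or circles holding the same sequence was not tested.

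The arrays themselves differed in brightness, and this touches every level given here. The 75th percentile of processed intensity over the non-control probes was 399 to 715 on the C57BL/6 arrays and 296 to 494 on the db/db arrays. Slide was inferred, in that arrays sharing a scan identifier were taken as 1 slide. On this reading slide 1 held C57BL/6 replicates 1 and 2. Slide 2 held C57BL/6 replicate 3 together with the db/db arrays, so that slide and group partly coincide. Levels are therefore given as log2 intensity minus the log2 75th percentile of the array. On this scale 0 means as bright as the 75th percentile, and a difference of 1 is a doubling.

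Gsta4 read higher in db/db on average, and that average was carried by 2 of the 3 animals. Its relative log2 level was -1.003, -0.92 and -0.60 on the C57BL/6 arrays, and -0.61, 0.42 and 0.52 on the db/db arrays, in the order of their numbers. Replicates 2 and 3 of db/db stood above all 3 control arrays, whereas db/db replicate 1 lay 0.01 below C57BL/6 replicate 3, less than the SD of the spots of either array. The mean of the controls was -0.84 ± 0.21 and that of the db/db arrays 0.11 ± 0.63 (SD, n = 3). The difference was 0.95 ± 0.29 on the log2 scale (limma SE, 95% interval 0.31 to 1.60), or 1.93-fold with an interval of 1.24-fold to 3.02-fold. Here and below, the SE and 95% interval of a difference are those of limma, which moderates the variance of a probe towards that of the others. Gsta4 varied more in db/db than any other mRNA probe, so its limma interval is narrower than its own SDs would give.

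The Gsta4 difference did not pass the correction for the number of probes. Its limma p was 0.00857 before adjustment and 0.345 after Benjamini-Hochberg adjustment over all 14312 probes tested. When the 50 mRNA probes were fitted and adjusted alone, the limma adjusted p was 0.261. Without centring the Gsta4 difference was 0.44, and its 95% interval of -0.3 to 1.18 included 0 (unadjusted limma p 0.243). The interval also included 0 in mRNA probes alone without C57BL/6 replicate 1 (-0.01 to 1.75). The same held with slide as a block and in slide 2 alone, as given below. An exact permutation test of this gene by itself gave p = 0.2 (two-sided), where 0.1 is the smallest p that 3 arrays against 3 allow. In these bulk samples a change in how many cells express the gene and a change in RNA per cell cannot be told apart.

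Prdx2 lay at nearly the same relative level on all 6 arrays. Its relative log2 level was 0.59, 0.64 and 0.72 on the C57BL/6 arrays, and 0.67, 0.58 and 0.78 on the db/db arrays. The groups overlapped throughout, with both the lowest and the highest value in db/db. The mean of the controls was 0.65 ± 0.06 and that of the db/db arrays 0.68 ± 0.10 (SD, n = 3). The difference was 0.03 ± 0.14 on the log2 scale (SE), with a limma adjusted p of 0.963 and an exact permutation p of 0.7 (two-sided). Its 95% interval ran from -0.29 to 0.34, that is from 0.819-fold to 1.27-fold, so larger changes of Prdx2 lie outside it in this fit. The interval depended on the processing, with -1.23 to 0.26 without centring and -0.27 to 0.29 with quantile normalization.

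**Figure D2:**
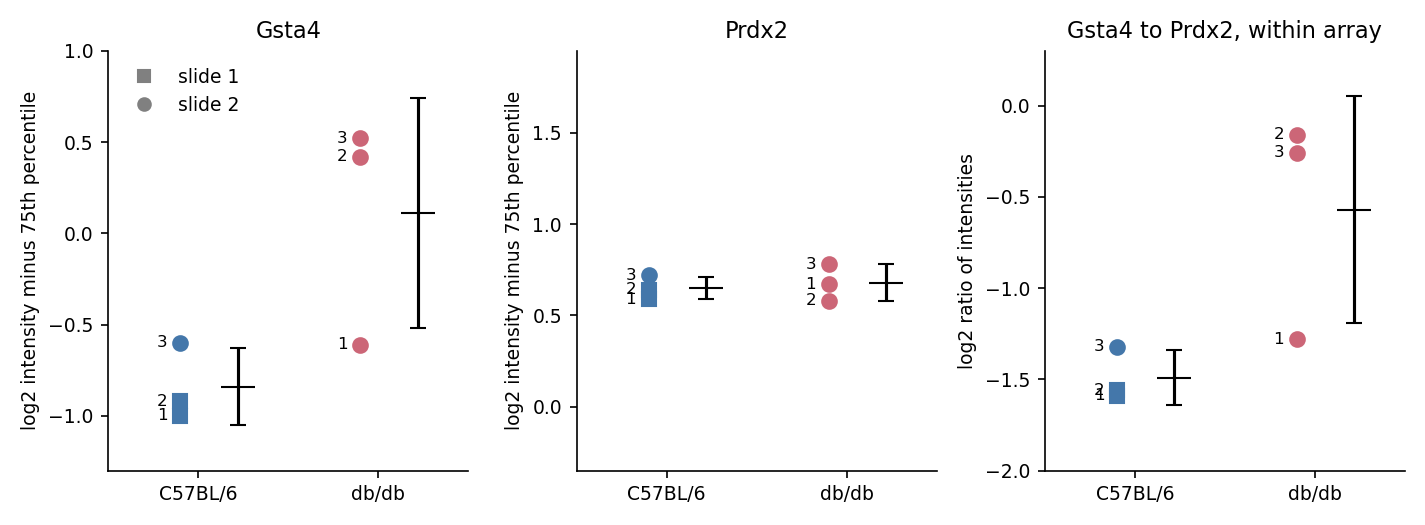
Relative log2 level of Gsta4 and Prdx2 (log2 intensity minus the 75th percentile of the array) and the log2 ratio of their intensities, by group; numbers give the replicate, squares and circles slides 1 and 2, and the black bars the mean and SD of 3 arrays. Gsta4 stood at 0.42 and 0.52 on 2 db/db arrays but at -0.61 on db/db replicate 1, and Prdx2 stayed between 0.58 and 0.78 on all 6 arrays.

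The 2 genes were then set against each other within each array, which removes any scaling factor that the array shares between them. The log2 ratio of Gsta4 to Prdx2 intensity stood at -1.59, -1.56 and -1.32 on the C57BL/6 arrays, and at -1.28, -0.16 and -0.26 on the db/db arrays. The groups did not overlap, with db/db on top, although db/db replicate 1 did so by a small step over C57BL/6 replicate 3. Like the relative level of Gsta4, the ratio was lowest on the brightest arrays, C57BL/6 replicates 1 and 2 (75th percentiles 715 and 557). Both were highest on the dimmest arrays, db/db replicates 3 and 2 (376 and 296). A dependence on brightness that differs between the probes is not removed by the ratio, and its part was not tested. The ratio averaged -1.49 ± 0.15 over the controls and -0.57 ± 0.62 over the db/db arrays (SD, n = 3), a difference of 0.92 on the log2 scale, or 1.90-fold. The exact permutation p was 0.1 (two-sided), the smallest this design can give. By the relative level of single probes, groups that did not overlap were found for 18% of the 50 mRNA probes and for 17% of all probes tested. No such share was computed for ratios of 2 probes. In these 6 animals the readings of Gsta4 and Prdx2 differed between the groups by unequal amounts on average. Because Prdx2 varied little, the ratio largely restates the Gsta4 difference, and it gives no amount for either gene alone.

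The control array on the db/db slide gave a smaller Gsta4 difference. With slide as a block in the fit, the contrast rests on C57BL/6 replicate 3 as the only control, and the Gsta4 difference was 0.71 ± 0.42 on the log2 scale (SE, 95% interval -0.25 to 1.67). The unadjusted limma p was then 0.126 and the adjusted limma p 1. The arrays of slide 2 fitted alone gave the same 0.71, with an interval of -0.45 to 1.86. For Prdx2 both fits gave -0.04, and for the ratio slide 2 gave 0.75. Of the control arrays, C57BL/6 replicate 3 had the highest relative level of Gsta4 and of Prdx2. The part of slide in the Gsta4 difference was not tested beyond these values, and slide 1 held no db/db array.

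The Gsta4 difference kept its direction whichever array was left out, but its adjusted p depended on 1 db/db array. Without db/db replicate 1 the difference was 1.31 on the log2 scale, and the adjusted limma p was 0.106 over all probes and 0.00135 over the 50 mRNA probes alone. Leaving out any other array gave 0.75 to 1.07 and no adjusted p under 0.05 in either fit. No label sets db/db replicate 1 apart from the other db/db animals. For Prdx2 the difference stayed between -0.03 and 0.08 whichever array was left out.

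**Figure D3:**
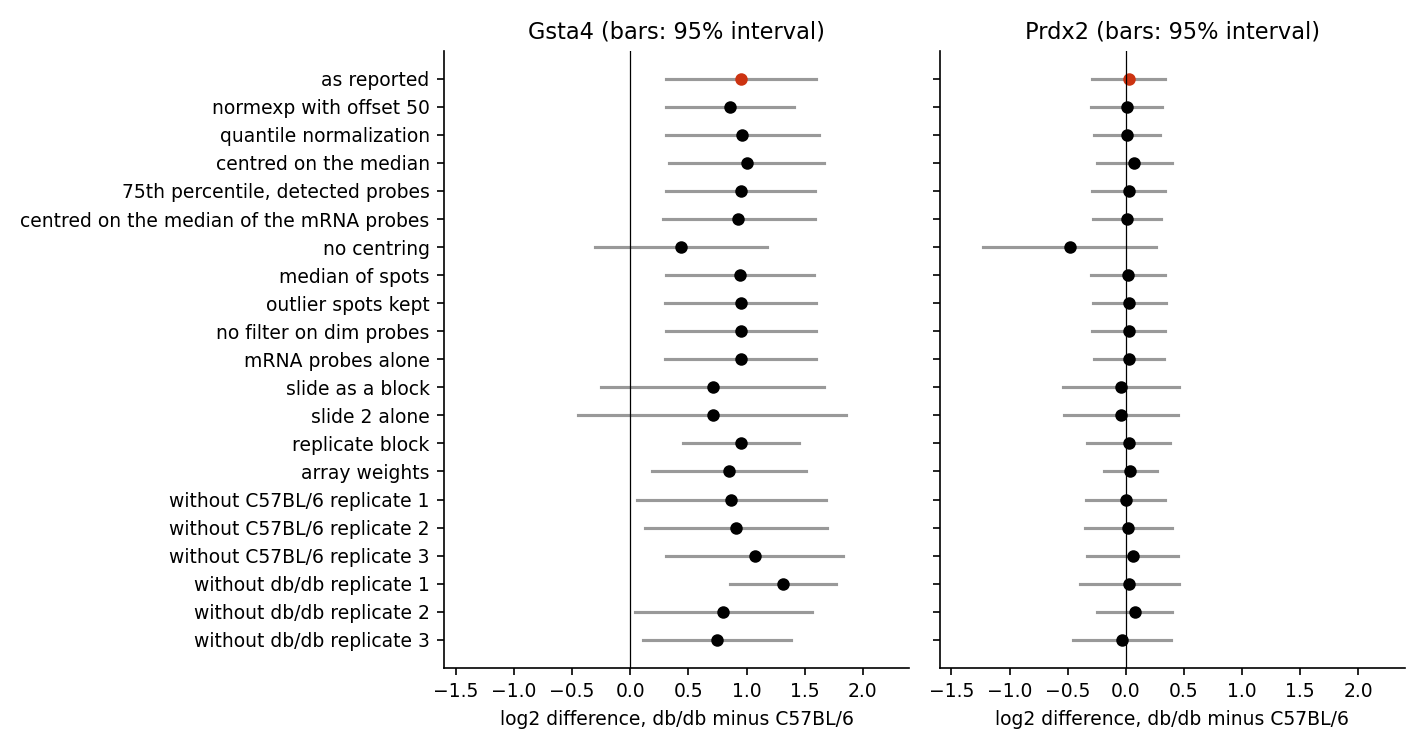
Log2 difference between db/db and C57BL/6 (horizontal axis) of Gsta4 and Prdx2 under different ways of processing the arrays (vertical axis). The fits of mRNA probes alone with 1 array left out are not drawn. Points are estimates, bars the limma 95% interval, and red marks the value given in the text. Gsta4 ran from 0.44 without centring to 1.31 without db/db replicate 1, and Prdx2 lay close to 0 except at -0.48 without centring.

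Among the 50 mRNA probes, which serve as the background, Gsta4 had the largest difference in size and the smallest p. Prdx2 stood 45th in both orders. The pair was chosen with earlier results of these data known, so the rank of Gsta4 is no independent support. An unadjusted limma p under 0.05 was found for 8 of the 50, or 16%, of which 7 (14%) were higher in db/db and 1 (2%) was lower. Gsta4 was 1 of the 7 and Prdx2 was not among the 8. The count of 8 was 4 without C57BL/6 replicate 1, 3 without C57BL/6 replicate 2, 3 without db/db replicate 2 and 0 with slide as a block. Probes named as negative controls also read higher in db/db, 11 of 15 of them, with a median log2 difference of 0.12 and a highest of 0.73, and 3 of the 15 had an unadjusted limma p under 0.05. The difference of Gsta4, 0.95, lay above the highest of these, and their part in it was not tested. Over all 14312 probes 10.6% had such a p, and 0 passed the limma adjusted p under 0.05. The median difference of the mRNA probes was -0.03 on the log2 scale, with 21 higher and 29 lower, so the value of Prdx2 was near the middle of them. A difference larger in size than that of Gsta4 was seen for 134 of all probes, or 0.936%. A smaller unadjusted limma p was seen for 354 of them.

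**Figure D4:**
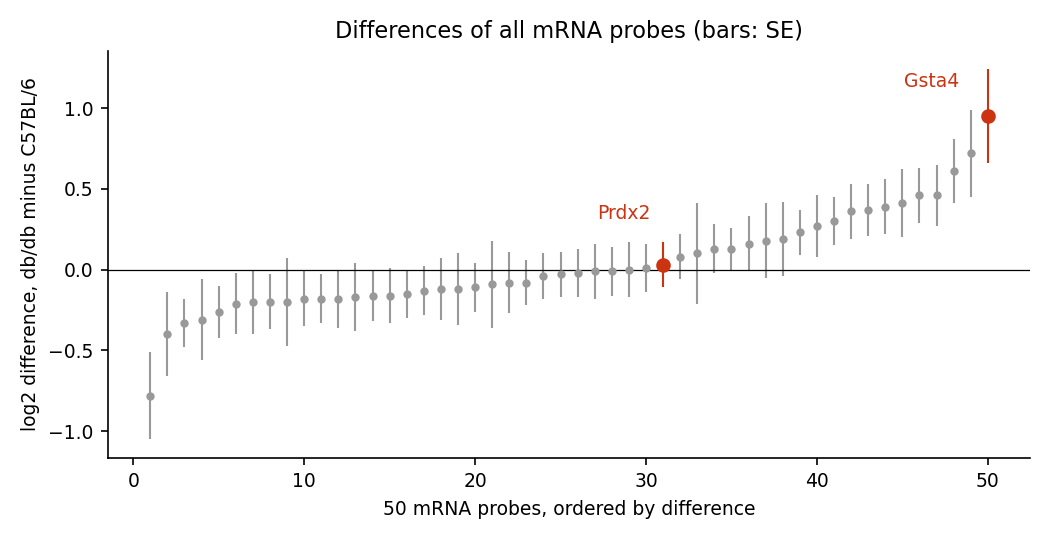
Log2 difference between db/db and C57BL/6 (vertical axis) of each of the 50 mRNA probes, ordered from lowest to highest (horizontal axis). Bars are the limma SE, and both genes are in red. Gsta4 stands at the upper end with 0.95, and Prdx2 lies near 0 with 0.03.

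The spread between animals also differed between the pair. The SD of Gsta4 among the db/db arrays, 0.63, was the largest of the 50 mRNA probes, whose median SD in db/db was 0.202. Among the C57BL/6 arrays the SD of Gsta4, 0.21, ranked 14th, beside a median of 0.166. Prdx2 was among the steadier probes, ranking 44th in C57BL/6 and 40th in db/db.

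Other probes were set against the profile of Gsta4 over the 6 arrays. Likeness was measured as the root mean square difference between log2 profiles, each centred on its own mean, against the 43 other named mRNA probes. The most like were Pex11a, a factor of peroxisome division, at 0.41, Rps4l, a gene related to a ribosomal protein, at 0.41, and E2f1, a cell-cycle transcription factor, at 0.44, beside a median of 0.66. On db/db replicates 2 and 3, Gsta4 lay 0.78 and 0.89 above its own mean, while Pex11a lay 0.48 and 0.15 above its own. Pex11a read higher in db/db by 0.46, E2f1 by 0.46 and Rps4l by 0.36 on the log2 scale. Their limma adjusted p values over all probes were 0.412, 0.457 and 0.489. These probes were picked for likeness to Gsta4 on the same 6 arrays, so their direction is no independent support. The circRNA probes ASCRP4010708 and ASCRP4000925, whose host genes are not named in the files, came closer, at 0.18 and 0.20, out of a far larger number of candidates.

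The profile of Prdx2 was nearly flat. By this measure such a profile lies nearest to others that vary little, so the values below do not by themselves show a shared pattern. The most like were Il2, a cytokine of T cells, at 0.07, Rab5a, a GTPase of early endosomes, at 0.08, and Bambi, a decoy receptor of TGF-beta signalling, at 0.08, beside a median of 0.19. The whole range of Prdx2 over the 6 arrays was 0.20 on the log2 scale, against 1.53 for Gsta4. The profiles of Gsta4 and Prdx2 differed by 0.59, so neither was among the probes most like the other.

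**Figure D5:**
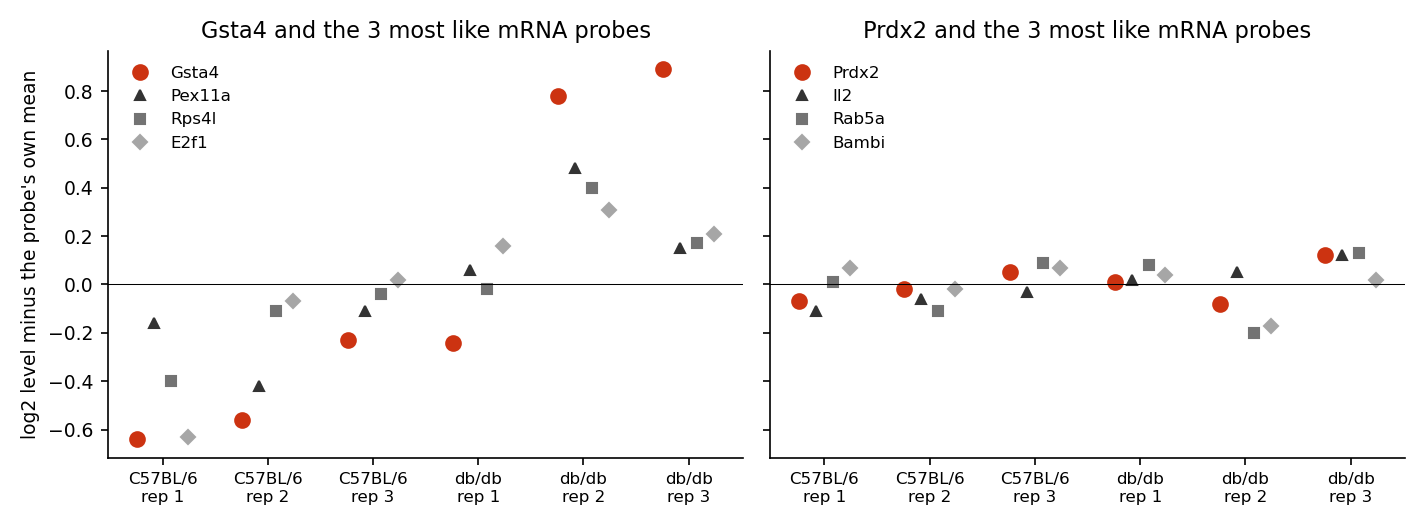
Log2 level of Gsta4 and Prdx2 (red) and of the 3 most like named mRNA probes of each (grey) on the 6 arrays, each minus its own mean over the arrays. Gsta4 lay at 0.78 and 0.89 on db/db replicates 2 and 3, further from 0 than any of its 3 neighbours there, and Prdx2 stayed within 0.12 of 0.

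Among the 44 mRNA probes that could be named, Gsta4 and Prdx2 were the only genes of a chosen list of 85. The 6 mRNA probes without a name could not be set against it. The list covered glutathione transferases, peroxiredoxins, glutathione peroxidases, catalase, superoxide dismutases, the thioredoxin and glutathione systems, aldehyde removal and their regulators. It also held other genes such as Cybb, Nox4, Alox15, Acsl4, Lpcat3, Ucp2 and Ucp3. Of the list, 84 genes were in the RefSeq gene table. Only Gsta4 and Prdx2 had a named probe, 0 of the 2 passed the limma adjusted p under 0.05, and the other 83 genes are not analysed here. Duox1, an oxidase, had a named probe but was not on the list, and its difference was -0.2 on the log2 scale. Of 14 heart muscle markers only Hspb7, a small heat shock protein of muscle, had a named probe, with a difference of -0.26 on the log2 scale. None of 10 erythroid markers had one, which bears on Prdx2 because red cells are rich in it, and the blood content of the tissue was not tested. The marker lists of leukocytes (8 genes), fibroblasts (7), endothelium (5), smooth muscle and pericytes (5) and adipocytes (5) had no named probe either. The gene table lists 2 pseudogenes of Prdx2, Prdx2-ps1 and Prdx2-ps2, and whether the Prdx2 probe also binds their transcripts was not tested.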

How the data were processed

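Each array file was deposited as Agilent Feature Extraction 11.0.1.1 output, per the file headers, with a Cy3 intensity per spot. Per the file headers, local background and a spatial trend had been removed from the processed intensity on each array, with no normalization between arrays. The other deposited columns used here were the median spot intensity, the median local background and flags of 0 or 1. The submitters' processing notes also name limma. The authors' series table holds 14236 circRNA probes and neither gene, and was not used.

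Log2 intensities were averaged over the 10 spots per probe without outlier spots, and the 75th percentile of the array was subtracted. Probes well above background on at least 3 of 6 arrays with a value on each (14312 of 14330) went into limma 3.58.1 (R 4.3.3, lmFit, eBayes, two-sided, Benjamini-Hochberg over all of them, threshold 0.05), after the code was tested on simulated data. Accessions gave names for 44 of the 50 mRNA probes through the RefSeq table of GRCm38.p6; the array was designed on mm9, so no coordinates are given. The number of arrays limits the precision. The genes, lists and tests were chosen with earlier results of these data known. Named genes were both members, list genes with a probe, and per member the 3 named mRNA probes and 2 circRNA probes of most like profile. Arrays of one scan were taken as 1 slide. Alternatives covered background correction, scaling, spots, filter, probes fitted, slide, replicate block, array weights and each array left out.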

Additional observations from a re-analysis of the deposited data

How the results depend on the processing

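Gsta4 read higher in db/db under all 26 alternatives, with log2 differences of 0.44 to 1.31 and an adjusted p under 0.05 in 1 of them (1.31, limma adjusted p 0.00135, mRNA probes alone without db/db replicate 1). With 1 array left out it was 0.75 to 1.31 by limma over all probes. The ratio of Gsta4 to Prdx2 kept its direction in all 12, from 0.72 to 1.28. The difference of Prdx2 turned sign without centring (-0.48), with slide as a block (-0.04), in slide 2 alone (-0.04), without C57BL/6 replicate 1 (0.00 after rounding) and without db/db replicate 3 (-0.03), and its range with 1 array left out was -0.03 to 0.08 in both fits. Without centring the median of all probes was -0.50, beside 0.44 for Gsta4 and -0.48 for Prdx2; with normexp that median was 0.11, beside 0.86 for Gsta4 and 0.01 for Prdx2. The 8 mRNA probes at an unadjusted p under 0.05 became 5 without centring, 5 with array weights, 0 with slide as a block and 0 in slide 2 alone. With 1 array left out they were 3 (without C57BL/6 replicate 2, or db/db replicate 2) to 8 over all probes, with 4 without C57BL/6 replicate 1, and 2 to 8 in the fit of mRNA probes alone.

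The groups share replicate numbers whose meaning the labels leave unstated. Deviations of same-numbered arrays from their group means correlated at -0.0888, -0.212 and 0.163 across mRNA probes. Across circRNA probes they correlated at -0.263, -0.135 and 0.419. The highest value between differently numbered arrays was 0.417 for mRNA and 0.496 for circRNA probes. Deviations from a mean of 3 arrays constrain each other, so these values cannot settle whether the numbers are pairs. The main fit did not pair them. With the replicate block the difference was 0.95 for Gsta4 (limma adjusted p 0.199) and 0.03 for Prdx2, the count of mRNA probes was 6, and the paired ratio difference was 0.92 (exact sign-flip p = 0.25, the smallest that 3 pairs allow). A fit on the authors' series table could not be run because it holds neither gene. Normexp used the median spot intensity; this, the setting without centring and the fits of mRNA probes alone with 1 array left out were chosen after seeing the data.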
